A study of Mus musculus with 223 samples.

Results

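Intrinsic apoptosis is the route by which a cell dies through its own mitochondria, and 9 of its regulators were followed in immature cortical interneurons (INs): Bax, Bak1, Bcl2, Bcl2l1, Bcl2l11, Mcl1, Casp9, Apaf1 and Xiap. They were chosen by name, as core genes of the pathway, and matched from Ensembl identifiers to mouse symbols, which gave 9 of 9 genes among the 43629 in the count table. The cells were Htr3a-GFP+ INs of the mouse cortex, sorted by fluorescence and sequenced one by one on embryonic day 18 (E18), postnatal day 2 (P2) or postnatal day 5 (P5). The question was which of these regulators the cells carried, and in how many cells, ahead of the postnatal window in which many cortical INs are eliminated.

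All cells came from a transgenic line on a C57BL/6 background in which eGFP is driven by regulatory sequences of Htr3a, the serotonin receptor subunit that marks INs of the caudal ganglionic eminence. No other allele and no treatment separated the groups, and animals of both sexes entered. The ages contributed 82 (E18), 66 (P2) and 75 (P5) cells. Per the study's methods, cells were captured on 2 chips each at E18 and P5 and on 1 chip at P2. Age P2 and its chip therefore cannot be told apart. The authors split the postnatal cells into types drawn from the same counts, with 22, 31 and 13 cells of types 1, 2 and 3 at P2 and 34, 19 and 22 at P5. Brains of an age were pooled before sorting, so each age was 1 sample and no test between groups was possible. Every value below is therefore a description of these cells. Levels are given as RPM, the read pairs of a gene per 1000000 mapped read pairs, pooled over the cells of a group. Intervals are exact 95% Poisson intervals for a level and exact 95% binomial intervals for a share of cells. The Poisson interval covers the counting of read pairs alone. It covers neither molecules, since no molecular identifiers were used, nor the spread between cells. The binomial interval covers the drawing of cells from 1 pool. Neither covers differences between animals. Where 0 cells passed, the share that is still allowed is given as 3 cells of the total. Expression in a cell was read at the study's own level of 10 RPM, called the level below.

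In the intrinsic pathway, BAX and BAK (encoded by Bax and Bak1) are the effectors that open the outer mitochondrial membrane. BCL2, BCL-XL (Bcl2l1) and MCL1 hold them in check, and BH3-only proteins such as BIM (Bcl2l11) relieve that check. Cytochrome c released from the mitochondria then assembles APAF1 and caspase-9 into the apoptosome, while XIAP blocks caspases downstream. Developing cortical INs are known to die by a BAX-dependent route in early postnatal life, in numbers that depend on their activity.

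The 6 regulators of the BCL2 family share a short BH3 core, the stretch through which its members bind one another. It is shown here at the level of the messenger because the family members are otherwise told apart only by name. Each coding sequence was searched in frame for a leucine codon followed, after 3 codons, by a glycine and an aspartate codon, and each held 1 match. Capitals mark those leucine, glycine and aspartate codons, with 30 bases printed 5′ to 3′ along the messenger, from transcripts of GENCODE M21 on GRCm38.
Bax, exon 3, chr7:45466000-45466029, minus strand: gagtgtCTCcggcgaattGGAGATgaactg
Bak1, exon 4, chr17:27022534-27022563, minus strand: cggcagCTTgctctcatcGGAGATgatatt
Bcl2, exon 1, chr1:106712578-106712607, minus strand: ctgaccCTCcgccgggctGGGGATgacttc
Bcl2l1, exon 2, chr2:152829700-152829729, minus strand: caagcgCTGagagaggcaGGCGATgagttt
Bcl2l11, exon 3, chr2:128147144-128147173, plus strand: caggagCTGcggcggatcGGAGACgagttc
Mcl1, exon 1, chr3:95659430-95659459, plus strand: gagaccCTGcggcgcgtgGGCGACggcgtg

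The sorted cells carried IN transcripts. They also differed in origin markers between ages. Of 3 markers of INs from the medial ganglionic eminence (MGE; Lhx6, Sst and Nkx2-1), at least 1 passed 10 RPM in 62 of 82 E18 cells, 14 of 66 at P2 and 3 of 75 at P5, with Sst at 333 RPM at E18 and at most 0.161 in any type at P5. Leaving those cells out keeps 20, 52 and 72 cells of the 3 ages. Levels of the regulators, except the near-absent Bak1, are therefore also given without them. Of 8 IN markers (Gad1, Gad2, Dlx1, Dlx2, Dlx5, Dlx6, Slc32a1 and Htr3a), at least 3 were above 10 RPM in 72 of 82 cells at E18, 52 of 66 at P2 and 71 of 75 at P5, while Slc32a1 stayed between 0.544 and 8.16 RPM in every group. Markers of excitatory neurons (6 genes) reached 3 or more above 10 RPM in 12 cells at E18 and in 0 at P2 and P5, and the astrocyte or oligodendrocyte lists did so in 4 cells, all of type 2 at P5. The 4 globin genes had no read pair in any group. The shallowest cell had 3707601 mapped read pairs, the median cell 9463033 and the deepest 15840130. Type 3 cells stood apart in depth of content: the median cell placed 44.4% of its read pairs on genes at P2 and 32.1% at P5, beside 49.9% to 58.6% in the other groups, and held fewer genes above 10 RPM than types 1 and 2 of its age. GEO's labels also give each cell a number and do not say what it stands for. It is called the library number here for short, and the cells that share it are called libraries. Every P2 cell had 353, whereas E18 and P5 cells carried 383, 392 or 393, so age P2 and that number cannot be told apart. Cells were dissociated in warm enzyme at E18 and P2 and at room temperature at P5, which cannot be told apart from age either.

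The effectors were unequal. Bax was present at all ages, in a minority of cells, and Bak1 was close to absent. Bax (chr7:45461697-45466898, minus strand) stood at 17.6 RPM at E18 (interval 17.3 to 17.9), 10.2 at P2 (10.00 to 10.5) and 8.45 at P5 (8.23 to 8.66). Single E18 cells ran from 0 to 235 RPM with a median of 0, and 17 of 82 exceeded 10 RPM (20.7%, 12.6 to 31.1), followed by 8 of 66 at P2 (12.1%, 5.38 to 22.5) and 10 of 75 at P5 (13.3%, 6.58 to 23.2). The 3 intervals of the share overlap. Without cells bearing an MGE marker, Bax was at 8.07 RPM at E18, 12.2 at P2 and 8.64 at P5. By share of cells, Bax lay mainly in type 2. At P2 it had 19.6 RPM in type 2, with 8 of 31 cells above the level, against 1.21 RPM and 0 of 22 cells in type 1 and 1 read pair in 1 of 13 cells of type 3. The highest type 1 cell at P2 reached 9.37 RPM, so its level and that of type 2, whose highest cell had 129, differ in their upper cells rather than in their medians, which were both 0. At P5 the level was 11.2 RPM in both type 1 and type 2, but it came from 2 of 34 cells in the former (5.88%, 0.720 to 19.7) and 8 of 19 in the latter (42.1%, 20.3 to 66.5). The 2 binomial intervals for these shares do not overlap, but they cover only the drawing of cells from 1 pool. Type 2 cells at P5 also passed the level for more genes in general. Of the gene and cell pairs of all kept genes, defined below, 28.8% passed it in type 2 and 23.4% in type 1. The median cell had 2738 genes above the level in type 2 and 2258 in type 1. How far this general difference enters the Bax shares was not tested. For Bax, type 3 held 15 read pairs at P5 and 0 of 22 cells above the level, which allows a share of up to 13.6%. Within the libraries numbered 393, which held most of the type 2 cells at P5, Bax was above 10 RPM in 6 of 14 type 2 cells, 0 of 12 type 1 cells and 0 of 17 type 3 cells.

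Bak1 (chr17:27019810-27029009, minus strand) had 103 read pairs in all, in 13 cells of all ages. Its highest single value was 5.75 RPM, in a type 2 cell at P2, and no cell at any age exceeded 10 RPM, which allows a share of up to 1.35% over all cells. Of its exonic sequence, 25.5% is shared with Ggnbp1 on the opposite strand, which had 7504 read pairs, and the sources used here do not state whether counting used strand. How reads on these bases were counted was not tested. At this depth BAX messenger was thus found in 35 cells above 10 RPM and BAK messenger in none.

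**Figure D1:**
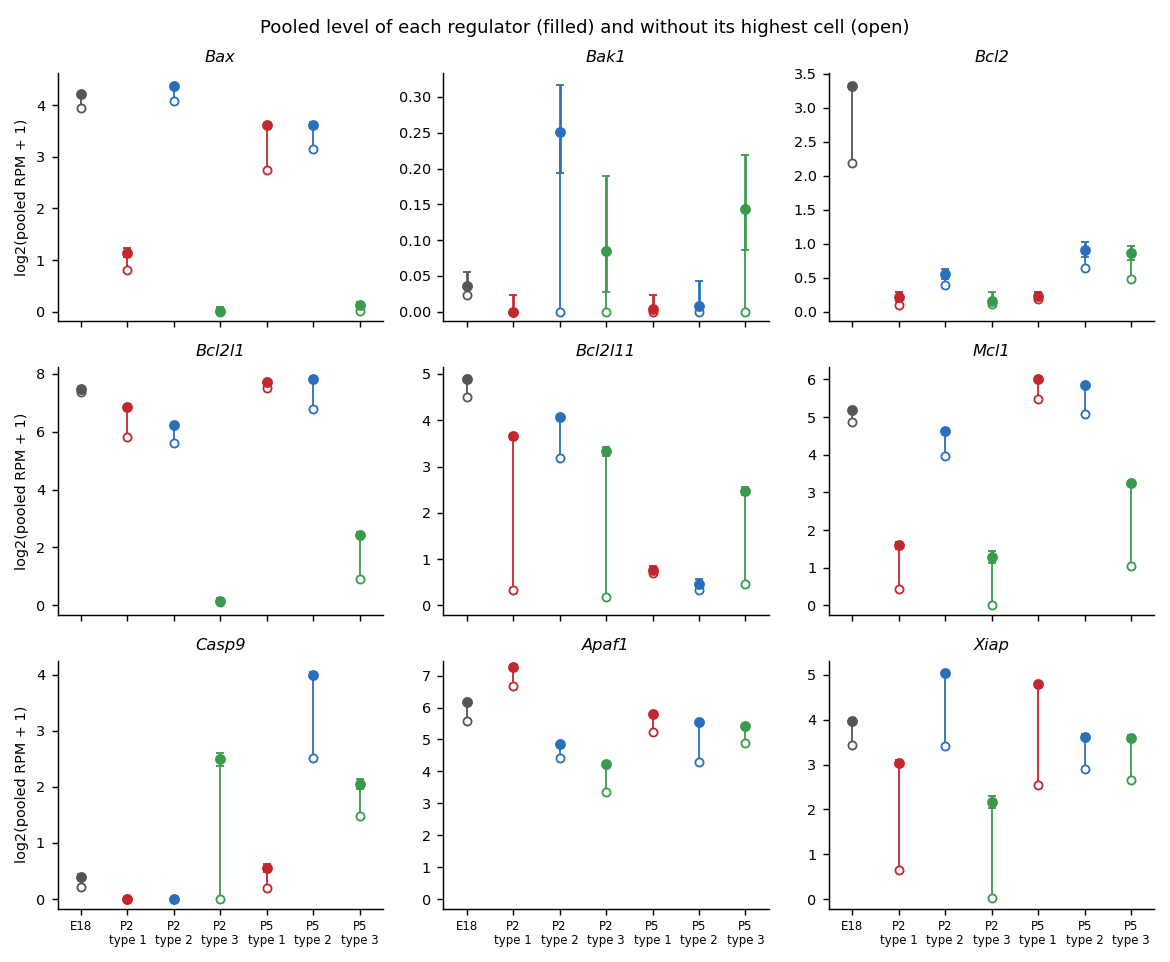
Pooled level of the 9 regulators in the 7 groups, as log2(pooled RPM + 1), each panel with its own axis. Filled points carry exact 95% Poisson intervals (often smaller than the point) and open points give the level once the highest cell of the group is left out. Bcl2l1 reached 228 RPM in type 2 at P5 but 0.108 in type 3 at P2, and Bcl2 stood out at E18 alone.

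Bcl2l1 was the most abundant of the pro-survival genes, per kilobase as well as in read pairs, and it was lowest at P2. Its pooled level (chr2:152780668-152831728, minus strand) was 176 RPM at E18 (175 to 177), 79.5 at P2 (78.8 to 80.3) and 163 at P5 (162 to 164). E18 cells ranged from 0 to 1439.7 RPM around a median of 0.321, P2 cells from 0 to 1457 around 0, and P5 cells from 0 to 1494 around 0.127. The ranges therefore coincided, and the ages differed in how many cells were high: 34 of 82 at E18 (41.5%, 30.7 to 52.9), 12 of 66 at P2 (18.2%, 9.76 to 29.6) and 25 of 75 at P5 (33.3%, 22.9 to 45.2). The interval at P2 lies below that at E18 and overlaps that at P5. Over all kept genes, defined below, the share of gene and cell pairs above 10 RPM took the same order (26%, 19.8% and 23.9%). Without cells bearing an MGE marker, Bcl2l1 had 157 RPM at E18 (9 of 20 cells above the level), 99.7 at P2 (11 of 52) and 165 at P5 (24 of 72), again lowest at P2. Cells that were above 10 RPM held a median of 363, 339 and 323 RPM at the 3 ages, which places Bcl2l1 among genes read strongly in some cells and hardly at all in the others. Over all cells it had a read pair in 54.3%, near the 52% of cells for the median kept gene, yet a level as high was met in 6.68% of the 9358 genes that passed the filter on low values (more than 5% of all cells above 10 RPM).

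By type, Bcl2l1 was high in types 1 and 2 and nearly missing in type 3. At P2 it measured 116 RPM in type 1 (6 of 22 cells above the level), 74.6 in type 2 (6 of 31) and 0.108 in type 3, where 9 read pairs lay in 6 of 13 cells and none exceeded 0.539 RPM. At P5 the values were 208 RPM in type 1 (12 of 34 cells), 228 in type 2 (11 of 19) and 4.40 in type 3 (2 of 22), and 80.7% of the type 3 reads came from 1 cell at 100.4 RPM. Type 3 thus lay lowest at both ages, and the order among the other groups is loose: leaving out any single cell moves type 2 at P5 between 109 and 243 RPM and type 1 between 163 and 217, so the 2 overlap with each other and with E18. In libraries 393 alone, type 3 had 5.50 RPM (2 of 17 cells), beside 187 in type 1 (4 of 12) and 129 in type 2 (7 of 14). The median kept gene was also lower in type 3, as given below, and the share of read pairs on genes was lowest there too. The part of either in the Bcl2l1 level was not tested.

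Mcl1, which encodes a short-lived pro-survival protein, was likewise lowest at P2, while the order of E18 and P5 depended on the cells included. Over all cells it stood at 35.8 RPM at E18 (35.3 to 36.2), 12.9 at P2 (12.6 to 13.2) and 48.2 at P5 (47.7 to 48.8; chr3:95658788-95663176, plus strand). E18 cells ran from 0 through a median of 0.121 to 676 RPM, P2 cells from 0 through 0 to 255, and P5 cells from 0 through 0.139 to 707. Above 10 RPM were 19 of 82 (23.2%), 8 of 66 (12.1%, 5.38 to 22.5) and 24 of 75 cells (32%, 21.7 to 43.8). Once cells bearing an MGE marker were left out, Mcl1 had 61.7 RPM at E18 (6 of 20 cells above the level), 9.90 at P2 (6 of 52) and 49.3 at P5 (23 of 72), so E18 was then the highest. With few E18 cells left, the order of E18 and P5 was not recomputed without the highest cell. The largest step between ages within a type was in type 1, which had 2.02 RPM and 1 of 22 cells above the level at P2 and 63.6 RPM and 16 of 34 cells at P5. Of the 446 read pairs in type 1 at P2, 82.7% were in 1 cell. Type 2 went from 23.9 RPM (6 of 31 cells) to 56.8 (6 of 19), and type 3 from 1.45 (1 of 13) to 8.51 (2 of 22). The E18 cells of libraries 392 held only 0.458 RPM and 0 of 9 cells above the level, unlike those of 383 (40.4 RPM, 9 of 48) and 393 (38.2 RPM, 10 of 25).

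Bcl2 had cells above the level at E18 only. Its level was 8.95 RPM at E18 (8.74 to 9.16), 0.307 at P2 (0.264 to 0.354) and 0.515 at P5 (0.464 to 0.571; chr1:106538178-106714274, minus strand). At E18 9 of 82 cells exceeded 10 RPM (11.0%, 5.14 to 19.8), against 0 of 66 at P2 and 0 of 75 at P5, which allow shares of up to 4.55% and 4.00%. No postnatal cell went above 8.00 RPM. One E18 cell at 473 RPM carried 60.8% of the reads, the next had 42.4, and without that cell the E18 level was 3.55 RPM. That cell was among the 12 E18 cells with 3 or more excitatory markers. Leaving out all 12 gave 3.45 RPM and 7 of 70 cells above the level, and leaving out the cells with an MGE marker gave 3.78 RPM and 2 of 20 cells, beside 0.334 RPM at P2 and 0.536 at P5. The summed excitatory list spanned 0 to 2323 RPM per cell at E18, with all 6 genes detected, and 0 to 157 at P5, where Slc17a7 had no read. Within libraries, Bcl2 at E18 was 1.39 RPM in 383, 7.33 in 392 and 24.3 in 393, against 0.499 to 0.537 at P5. A low trace was widespread, with at least 1 read pair in 145 cells, against 121 for Bcl2l1. An antisense gene, D630008O14Rik, covers 6.09% of the exonic bases.

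**Figure D2:**
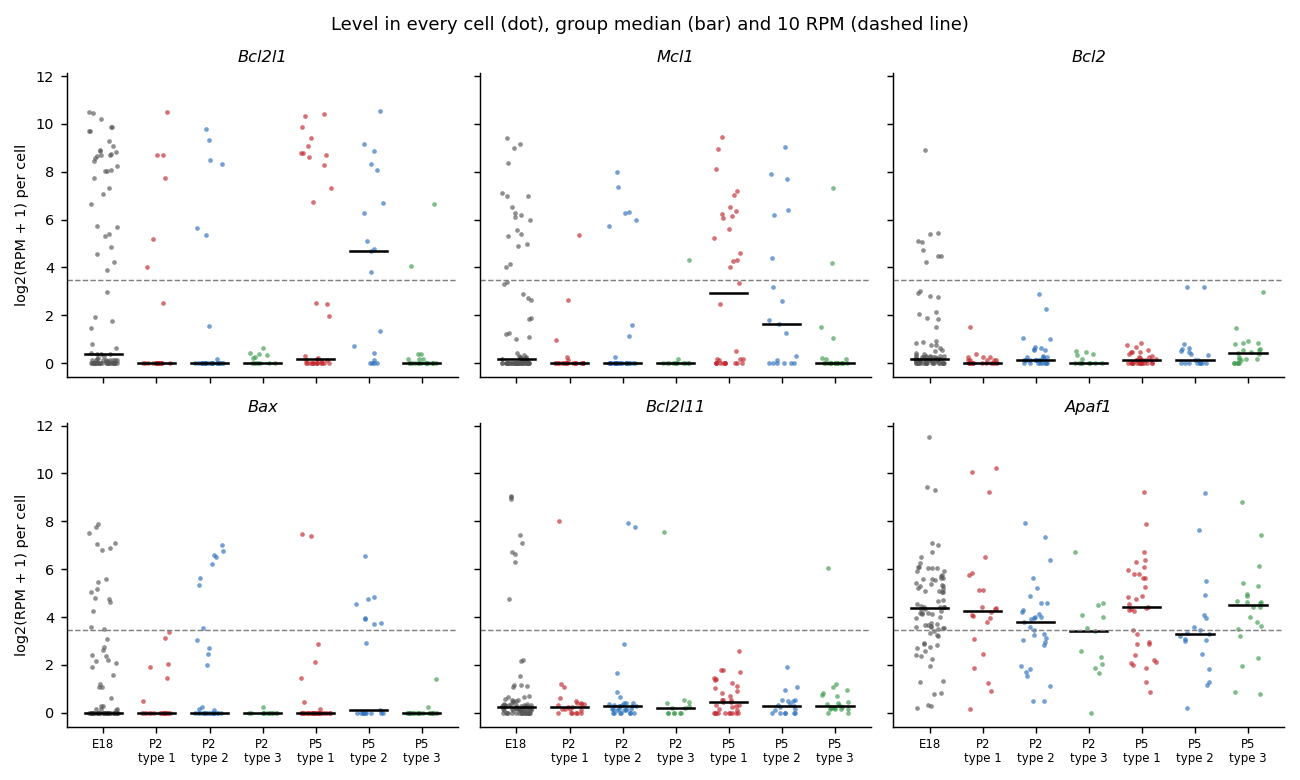
Level of 6 regulators in every cell, as log2(RPM + 1), by age and type. Dots are single cells, black bars are group medians and the dashed line is 10 RPM. Bcl2l1 split into cells near 0 and cells mostly far above the line, Mcl1 and Bax also had cells close to the line, Bcl2l11 was high in few cells, and Apaf1 formed a continuous band around 10 to 20 RPM.

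Bcl2l11, the BH3-only gene in the set, was high in few cells and was lowest at P5. The level was 28.8 RPM at E18 (28.5 to 29.2), 13.3 at P2 (13.0 to 13.6) and 1.58 at P5 (1.48 to 1.67; chr2:128126038-128162547, plus strand). Cells ran from 0 to 532 RPM at E18 around a median of 0.182, from 0 to 259 at P2 around 0.163, and from 0 to 64.8 at P5 around 0.260. Medians were thus alike and the difference lay in the high cells, of which there were 9 of 82 (11.0%, 5.14 to 19.8), 4 of 66 (6.06%, 1.68 to 14.8) and 1 of 75 (1.33%, 0.0338 to 7.21). The 3 intervals overlap. The single P5 cell was of type 3, and no cell of types 1 and 2 exceeded 4.95 RPM at that age. In libraries 392, Bcl2l11 was at 0.140 RPM in E18 cells and 0.754 in P5 cells, so the difference in 383 (22.1 and 0.301 RPM) and 393 (51.5 and 2.42 RPM) was not present there. Of its 9 high cells at E18, 8 bore an MGE marker, near the share over all E18 cells (62 of 82). Without such cells Bcl2l11 was at 3.76 RPM at E18 (1 of 20 cells above the level), 15.2 at P2 (3 of 52) and 1.65 at P5 (1 of 72), so E18 was no longer the highest. Like Bcl2, the gene left a trace in most cells, with a read pair in 168 cells (75.3%). Of the 14 cells above 10 RPM, 7 also held Bcl2, Bcl2l1 or Mcl1 above it.

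Over all cells, Bcl2 and Bcl2l11 were both highest at E18 (Bcl2l11 only with the MGE-marker cells included), whereas Bcl2l1 had like levels at E18 and P5, and the 250 bases before the start of each gene are shown for comparison. They come from RefSeq on GRCm38.p6, printed 5′ to 3′ on the strand of the gene. Capitals mark matches, on either strand, to 4 motifs: GGGCGG (an SP1-type GC box), CACGTG (an E-box), TGACGTCA (a cAMP response element) and TGTTTAC (a forkhead motif).
Bcl2, chr1:106714291-106714540, minus strand: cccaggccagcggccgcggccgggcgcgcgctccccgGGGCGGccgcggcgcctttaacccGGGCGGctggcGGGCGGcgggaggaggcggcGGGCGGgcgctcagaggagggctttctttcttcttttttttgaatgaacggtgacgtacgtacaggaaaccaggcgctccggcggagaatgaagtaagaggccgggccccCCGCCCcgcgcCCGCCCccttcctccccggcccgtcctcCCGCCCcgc
Bcl2l11, chr2:128125788-128126037, plus strand: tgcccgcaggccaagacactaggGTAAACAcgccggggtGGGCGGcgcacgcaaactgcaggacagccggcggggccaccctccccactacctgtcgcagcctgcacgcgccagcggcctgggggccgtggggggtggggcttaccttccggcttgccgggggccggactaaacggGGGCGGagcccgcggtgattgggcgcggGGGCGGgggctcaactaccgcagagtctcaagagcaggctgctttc
Bcl2l1, chr2:152831729-152831978, minus strand: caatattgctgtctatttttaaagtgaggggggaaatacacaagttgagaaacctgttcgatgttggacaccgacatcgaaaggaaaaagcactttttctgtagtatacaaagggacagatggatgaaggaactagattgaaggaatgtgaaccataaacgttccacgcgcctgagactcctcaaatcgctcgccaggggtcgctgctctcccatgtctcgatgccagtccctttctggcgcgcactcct

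The Bcl2 window held 7 GC boxes and 36 CG pairs, the Bcl2l11 window 3 GC boxes, 1 forkhead motif and 24 CG pairs, and the Bcl2l1 window none of the 4 motifs and 12 CG pairs. These 3 windows were picked by the levels above, and no link to the ages is read from them. Among the other regulators, the Casp9 window (highest level at P5) held 4 GC boxes and 25 CG pairs. The Apaf1 window (like median cells at the 3 ages) held 2 GC boxes and 42 CG pairs. The Mcl1 window (lowest level at P2, as for Bcl2l1) held 1 GC box and 26 CG pairs. Over 27025 promoter windows of the same length, 33% held the GC box, 6.04% the E-box, 1.60% the cAMP response element and 3.06% the forkhead motif, and the median window had 6.00 CG pairs. These matches describe the letters only. No factor binding was measured.

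Apaf1, the scaffold of the apoptosome, was the most widely found regulator. It had a read pair in every cell but 1 and exceeded 10 RPM in 146 (65.5%, 58.8 to 71.7), which 5.32% of the 9358 kept genes matched or passed. Its level was 70.8 RPM at E18 (70.2 to 71.4), 71.8 at P2 (71.1 to 72.5) and 49.4 at P5 (48.9 to 50; chr10:90989311-91082770, minus strand). Cells ran from 0.150 through a median of 19.8 to 2977 RPM at E18, from 0 through 14.6 to 1205 at P2, and from 0.163 through 18.3 to 595 at P5. The median cell was therefore much alike at the 3 ages, as were the counts above 10 RPM, at 61 of 82 (74.4%, 63.6 to 83.4), 40 of 66 (60.6%, 47.8 to 72.4) and 45 of 75 cells (48 to 71.1), with overlapping intervals. The pooled level leaned on single cells, and without the highest of them it was 47 RPM at E18 and 52.2 at P2. Without cells bearing an MGE marker the order was steeper, with 172 RPM at E18 (14 of 20 cells above the level), 81.8 at P2 (33 of 52) and 49.9 at P5 (43 of 72). The E18 value rests mainly on 1 cell, since leaving out the highest cell of each age as well gave 72.2, 57.1 and 40.6 RPM. Type 1 at P2 had the highest level, 152 RPM, and 101 without its top cell, while type 2 had 28.1 and type 3 had 17.9. At P5 the 3 types lay at 54.7, 46.2 and 42.3 RPM and overlapped once any single cell was left out. Type 3, which was low for Bcl2l1, Mcl1 and Bax, held Apaf1 above 10 RPM in 17 of 22 cells at P5 (77.3%, 54.6 to 92.2), and type 2 in 7 of 19 (36.8%, 16.3 to 61.6).

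Casp9, the initiator caspase that Apaf1 recruits, was rare. It had a read pair in 19 cells and exceeded 10 RPM in 9 (4.04%, 1.86 to 7.52). The level was 0.319 RPM at E18, 0.635 at P2 and 4.93 at P5 (4.77 to 5.10; chr4:141793612-141815976, plus strand), from 1 of 82, 1 of 66 and 7 of 75 cells above the level (1.22%, 1.52% and 9.33%, the last with an interval of 3.84 to 18.3). Of the P5 reads, 55.5% were in 1 type 2 cell at 270.5 RPM, and without it the level was 2.22. Type 2 held 4 of these 7 cells, type 3 held 2 and type 1 held 1. In libraries 392 the order was opposite, with 1.69 RPM at E18 and 0.0664 at P5. Leaving out the 12 E18 cells with excitatory markers lowered the E18 level to 0.00747 RPM, and without cells bearing an MGE marker the 3 ages had 0.577, 0.803 and 4.72 RPM. Apaf1 and Casp9 were above 10 RPM together in 6 cells, and Bax, Apaf1 and Casp9 in 2.

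Xiap, the inhibitor that binds caspase-9 and caspases downstream of it, had like pooled levels at the 3 ages over all cells, but neither the libraries nor the cells without MGE markers shared this. It measured 14.6 RPM at E18 (14.3 to 14.9), 19.0 at P2 (18.7 to 19.4) and 19.0 at P5 (18.6 to 19.3; chrX:42059679-42109656, plus strand). The highest cells held 385, 593 and 557 RPM and 33.6%, 59.5% and 57.8% of the reads, and the levels without them were 9.83, 7.86 and 8.17. In cells without an MGE marker, Xiap was lowest at P2, with 8.80 RPM (6 of 52 cells above the level), beside 22.5 RPM at E18 (2 of 20) and 19.2 at P5 (13 of 72). The E18 value thus rests on few cells, and this order was not recomputed without the highest of them. From E18 to P5 the level over all cells went from 10.3 to 65.6 RPM in libraries 383, from 48.9 to 2.81 in 392 and from 11.8 to 7.93 in 393. Above 10 RPM were 13 of 82 cells (15.9%), 9 of 66 (13.6%) and 14 of 75 (18.7%), and the intervals overlap. In types 1, 2 and 3 the pooled level was 7.18, 31.8 and 3.48 RPM at P2 and 27, 11.3 and 11.1 at P5, and each group overlapped its neighbour in the order of levels once a single cell was left out. In type 1 at P5, 82.7% of the reads were in 1 cell and the level without it was 4.86, whereas the share of cells above 10 RPM was highest in type 2 at both ages (6 of 31 and 6 of 19).

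**Figure D3:**
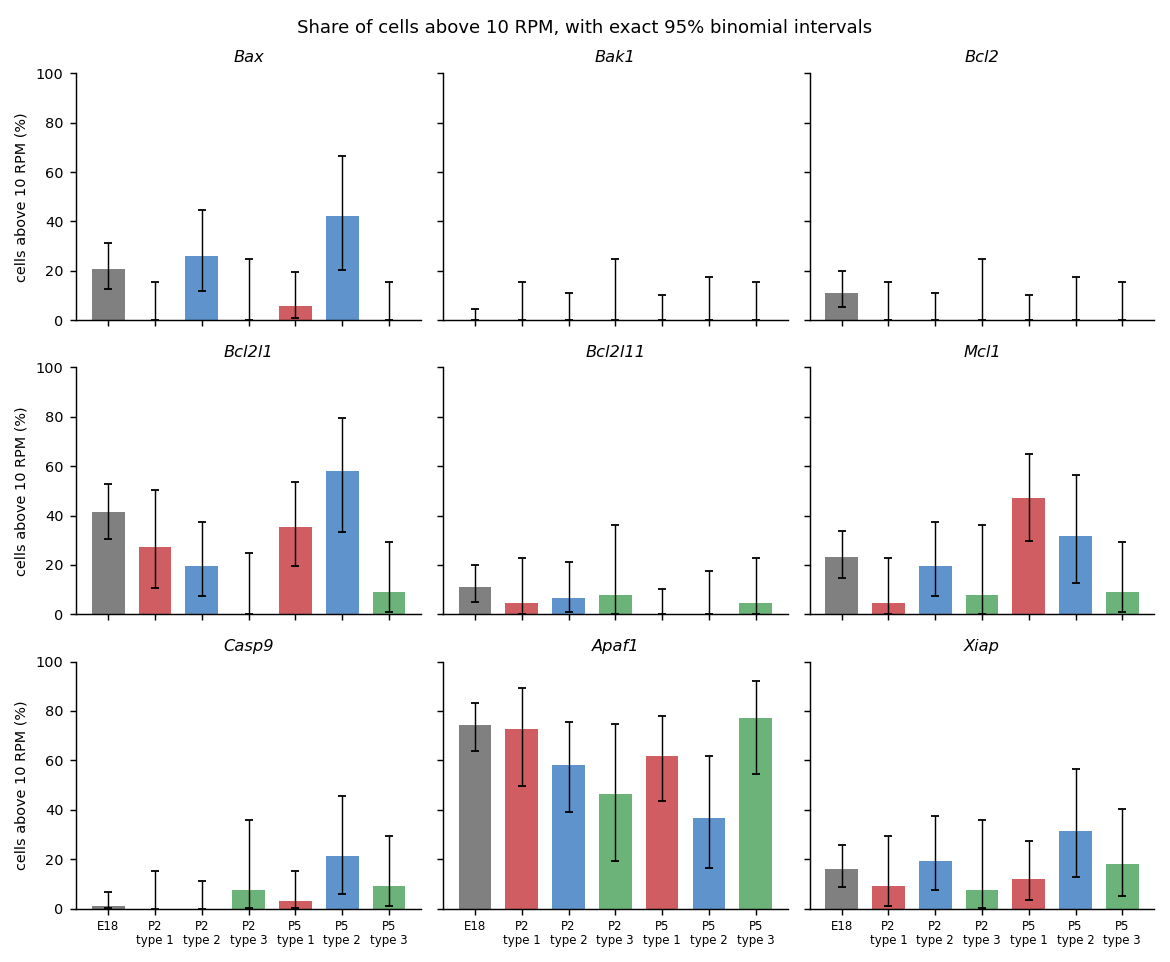
Share of cells above 10 RPM for each regulator in the 7 groups, with exact 95% binomial intervals, on 1 axis from 0 to 100%. Apaf1 was above the level in 36.8% to 77.3% of the cells of every group and Bak1 in none, while Bax was highest in type 2 at both postnatal ages.

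Per length of exonic sequence, Bcl2l1 came first at every age, with an RPKM (RPM per kilobase of exonic sequence) of 38.4 at E18, 17.3 at P2 and 35.6 at P5. Behind it at E18 were Bax (11.2), Mcl1 (10.5) and Apaf1 (7.84), then Bcl2l11 (3.59), Xiap (1.54), Bcl2 (0.978), Casp9 (0.0615) and Bak1 (0.0105). At P5 Mcl1 was second (14.1) and Bcl2l11 seventh (0.196). Type 3 had another order, with Apaf1 first at both P2 (1.98) and P5 (4.69) and Bcl2l1 at 0.0235 and 0.960.

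Counted within cells, INs held few of these regulators at once. The mean number above 10 RPM was 1.99 of 9 at E18, 1.24 at P2 and 1.68 at P5, with extremes of 0 and 5, 0 and 3, and 0 and 4. When every cell was thinned to the lowest total count on genes (1596087), the means were 1.98, 1.21 and 1.72. Without type 3 cells they were 1.36 at P2 and 1.85 at P5, and without cells bearing an MGE marker 1.80, 1.29 and 1.65. All kept genes took the same order, with 26% of their gene and cell pairs above 10 RPM at E18, 19.8% at P2 and 23.9% at P5. For the 6 regulators that passed the same filter the shares were 31.1%, 20.5% and 26.4%, and for all 9, of which Bak1, Bcl2 and Casp9 failed it, 22.1%, 13.8% and 18.7%. Cells with none of the 9 above the level were 4 of 82 at E18 (4.88%, 1.34 to 12.0), 15 of 66 at P2 (22.7%, 13.3 to 34.7) and 7 of 75 at P5 (9.33%, 3.84 to 18.3). Without the MGE-marker cells they were 0 of 20, 12 of 52 and 7 of 72, and the interval at E18 (up to 16.8%) then overlaps that at P2 (12.5 to 36.8). At P2, over all cells, this was 6 of 13 type 3 cells, 6 of 31 of type 2 and 3 of 22 of type 1.

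**Figure D4:**
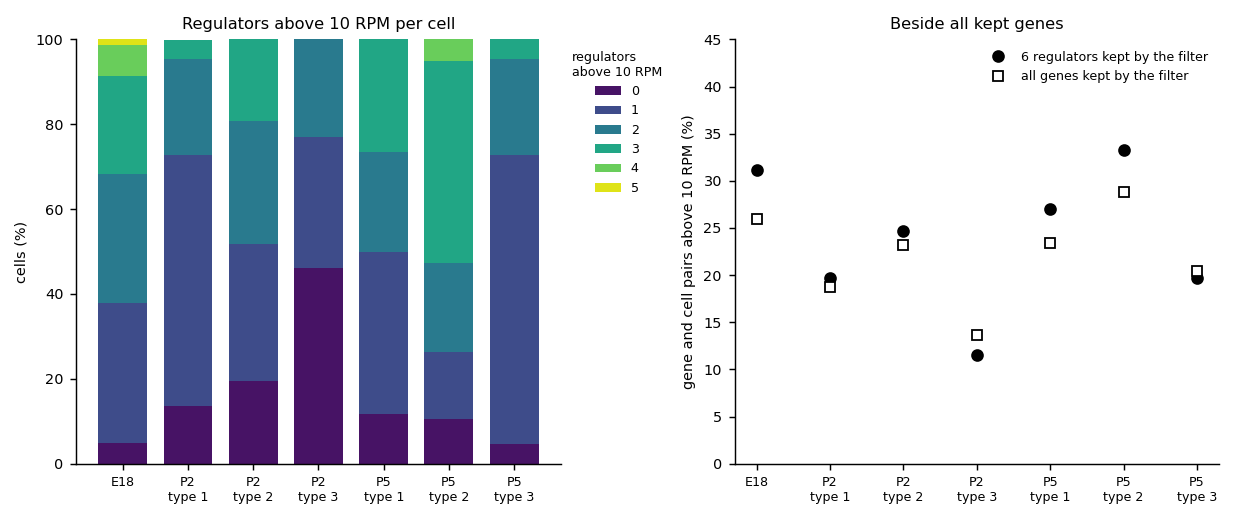
Left, share of cells in each group by how many of the 9 regulators were above 10 RPM. Right, share of gene and cell pairs above 10 RPM for the 6 regulators kept by the filter (filled circles) and for all kept genes (open squares). Both were lowest in type 3 at P2 (11.5% and 13.6%) and highest in type 2 at P5 (33.3% and 28.8%).

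A pro-survival messenger was missing from many cells at this level. At least 1 of Bcl2, Bcl2l1 and Mcl1 passed the level in 49 of 82 E18 cells (59.8%, 48.3 to 70.4), 18 of 66 at P2 (27.3%, 17 to 39.6) and 37 of 75 at P5 (49.3%, 37.6 to 61.1). The interval at P2 lies below that at E18 and overlaps that at P5 by a small margin. All kept genes took the same order, with 26%, 19.8% and 23.9% of their gene and cell pairs above 10 RPM. How far this general order enters the share was not tested. In cells with no MGE marker the counts were 14 of 20 (45.7 to 88.1), 15 of 52 (28.8%, 17.1 to 43.1) and 36 of 72 (38 to 62), and the intervals stood in the same relation. By type the share was 31.8%, 32.3% and 7.69% for types 1, 2 and 3 at P2, and 61.8%, 63.2% and 18.2% at P5. Of Bcl2l1 and Mcl1, 48 cells were above the level for Bcl2l1 alone, 28 for Mcl1 alone and 23 for both. Bcl2l1 was above it in 45.1% of the Mcl1 cells (31.1 to 59.7) and in 27.9% of the others (21.3 to 35.2), and the intervals overlap. In type 1 the balance of the 2 genes differed between ages: at P2 6 cells held Bcl2l1 alone and 1 held Mcl1 alone, and at P5 the counts were 5 and 9.

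Bax was found with and without these partners. Of the cells above 10 RPM for Bax, 10 of 17 at E18, 3 of 8 at P2 and 7 of 10 at P5 also held at least 1 of the 3 pro-survival genes. Bcl2l1 was above the level in 51.4% of the 35 Bax cells (34 to 68.6) and in 28.2% of the other 188 (21.9 to 35.2), and the intervals overlap. The former cells held a median of 2522 genes above 10 RPM and the latter 2211. Across all cells of the series, which share pools, libraries and differences in depth, the largest correlation between any 2 of the 9 genes was 0.22, for Bax and Bcl2l1 on log2(RPM + 1), and it is given as a description. The genes most like Bcl2l1 over the same cells were Gm17383 and Rps21 (Pearson's r of 0.31 and 0.30), and those most like Apaf1 were Tmem168 and Gm37132 (0.27 each). Such weak values in sparse counts are no finding.

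Between ages, a regulator was counted when its pooled levels differed at least 2-fold after adding 1 RPM to both. At P2 against E18, 4 of 9 regulators were lower by that measure and 0 higher: Bcl2 (log2 fold of -2.93), Mcl1 (-1.40), Bcl2l1 (-1.14) and Bcl2l11 (-1.06). The last 3 are among the 6 regulators that are kept genes. Of all kept genes, 33.3% differed as much (21.6% lower and 11.7% higher), with a median log2 fold of -0.20, so the count is a little above the background. This count depends on the scaling, since it was 2 of 9 when levels were taken relative to counts on genes, or scaled by TMM or by DESeq2 size factors, and 2 of 9 without type 3 cells. Of all kept genes, 33.9%, 34.1%, 32.7% and 33.9% passed under these settings, so the count then lay below the background. Under those 4 settings Bcl2l1 lay between -0.95 and -0.93 and stayed lower, just inside the limit. Without cells bearing an MGE marker, 5 of 9 passed, beside 48.7% of all kept genes, and they were in part other genes. Bcl2 (-1.84), Mcl1 (-2.52), Apaf1 (-1.06) and Xiap (-1.26) were then lower and Bcl2l11 was higher (1.77), while Bcl2l1 was at -0.65. With the highest cell of each age also left out, Apaf1 had 72.2 RPM at E18 and 57.1 at P2, within 2-fold. Xiap had 2 of 20 E18 cells above the level, and its fold was not recomputed without the highest. Over all cells Apaf1 and Xiap had been within 2-fold.

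At P5 against E18, 3 of 9 regulators passed, beside 30.5% of all kept genes, a share near the background. Only 1 of the 3, Bcl2l11, is itself among the kept genes. Bcl2l11 (-3.53) and Bcl2 (-2.72) were lower and Casp9 (2.17) was higher. Within the libraries, Bcl2 was lower in 383 (-0.64), 392 (-2.44) and 393 (-4.08), while Bcl2l11 was lower in 383 (-4.15) and 393 (-3.94) and higher in 392 (0.62), which held 9 E18 cells. Casp9 gave 1.41, -1.34 and 2.64. Without cells bearing an MGE marker, Bcl2 was at -1.64, Casp9 at 1.86 and Bcl2l11 at -0.85, which is within 2-fold. Apaf1 passed in its place (-1.76), so that 3 of 9 did, beside 45.6% of all kept genes. With the highest cell of each age also left out, Apaf1 had 72.2 RPM at E18 and 40.6 at P5, which is within 2-fold. Over all cells Bcl2l1 (-0.11), Mcl1 (0.42), Xiap (0.36), Apaf1 (-0.51) and Bax (-0.98) were within 2-fold, and Bax passed once the highest cell of each age was left out (-1.20). Without the MGE-marker cells Bcl2l1 (0.075), Mcl1 (-0.32), Xiap (-0.22) and Bax (0.088) were on the other side of 0. In single libraries (383, 392 and 393) several of these did pass: Xiap was at 2.56, -3.71 and -0.52, Apaf1 at -0.43, -2.81 and 1.21, Mcl1 at 0.77, 4.19 and 0.37, and Bax at -0.43, -0.61 and -1.22, while Bcl2l1 was at 0.66, 0.22 and -0.14. At P5 against P2, 4 of 9 passed, beside 34.2% of all kept genes. Of the 6 regulators that are kept genes, 3 passed. Mcl1 (1.83), Casp9 (1.86) and Bcl2l1 (1.03) were higher and Bcl2l11 (-2.47) was lower. With a pseudocount of 5 RPM 2 of 9 passed, and without cells bearing an MGE marker Bcl2l1 was at 0.72 and Xiap at 1.04. The comparisons share groups, so the low P2 level of Bcl2l1 and Mcl1 enters both the first and the last.

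**Figure D5:**
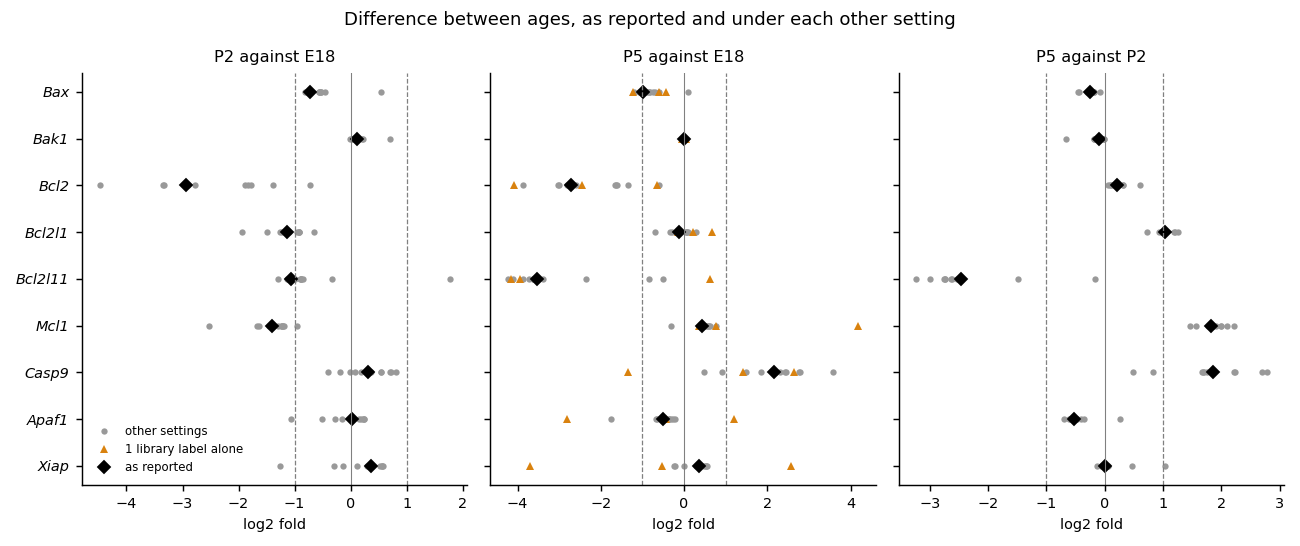
Log2 fold of the pooled level of each regulator between ages, as reported (diamonds), under other settings (grey dots) and within 1 library label (orange triangles, P5 against E18 only). Dashed lines mark 2-fold. Mcl1 was lower at P2 than at E18 and higher at P5 than at P2 under every setting drawn, while Xiap, Apaf1, Casp9 and Bcl2l11 at P5 against E18 spread to both sides between library labels.

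Between types of an age, 2-fold differences were common among all genes, and the regulators are read against that. The 9 include genes that failed the filter. Of the 6 regulators that are kept genes, 4, 4 and 5 passed for types 1, 2 and 3 at P2. At P5, 1, 1 and 4 of them did. Type 1 at P2 differed from the other types for 4 of 9 regulators, beside 53.3% of all kept genes: Apaf1 was higher (2.51) and Bax (-2.89), Mcl1 (-2.74) and Xiap (-1.71) were lower. Type 2 at P2 differed for 5 of 9, beside 50.1%, with Bax (3.45), Mcl1 (3.12) and Xiap (2.20) higher and Apaf1 (-2.0) and Casp9 (-1.18) lower. The Casp9 value rests on 1 type 3 cell. Type 3 at P2 differed for 6 of 9, beside 70.2%, with Bcl2l1 (-6.39), Bax (-3.67), Mcl1 (-2.68), Xiap (-2.33) and Apaf1 (-2.11) lower and Casp9 (2.49) higher. The median kept gene was itself lower in type 3 at P2, by a log2 fold of -1.35, and only 0.887% of kept genes were as far down as Bcl2l1.

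At P5, type 1 differed from the other types for 2 of 9 regulators, beside 47% of all kept genes, with Xiap higher (1.19) and Casp9 lower (-2.81). The Xiap value changed sign without the highest cell (-0.69). Type 2 differed for 2 of 9, beside 45%, with Casp9 higher (2.76) and Bcl2l11 lower (-1.12). The Bcl2l11 value rests on the 1 type 3 cell at 64.8 RPM among the other types, and was -0.35 without the highest cells. Type 3 differed for 4 of 9, beside 60.3%, with Bcl2l1 (-5.32), Bax (-3.49) and Mcl1 (-2.71) lower and Bcl2l11 (1.81) higher, the last from 1 cell. Here the median kept gene stood at -0.85, and 1.42% of kept genes were as low as Bcl2l1. Without the highest cells Bcl2l1 was at -6.55 at P5 and -5.96 at P2. Beside depth, the summed level of 10 dissociation-induced genes also set type 3 apart at P5, with a median cell of 6.16 RPM against 1942 in type 1 and 678 in type 2 (363, 925 and 562 at P2). The part of these in the low Bcl2l1 and Mcl1 of type 3 was not tested.

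Around these 9 genes, 57 others of the pathway were listed by role, of which 32 passed the filter. At P5 against E18, 1 of the 32 was higher by at least 2-fold and 6 were lower, beside 11.4% higher and 19.1% lower of all kept genes. The lower share was near the background and the higher one below it. The median log2 fold was -0.39 beside -0.17. By role, 3 of 9 BH3-only genes passed the filter and 1 was lower, 6 of 7 mitochondrial genes passed and 1 was lower, 4 of 5 genes of the p53 arm passed and 1 was lower, and of 10 kinases and factors of JNK, AKT and FOXO signalling all passed, 3 lower and 1 higher. Of the caspases and cytochrome c (3 kept), the inhibitors of apoptosis and their antagonists (4 kept), the effector Bok and the extrinsic pathway (1 kept, Cflar), none reached 2-fold, and none of the 5 other pro-survival genes was kept.

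Mapk10, which encodes the neuronal Jun kinase JNK3, was the only one of them that both differed 2-fold and passed 10 RPM in 25% or more of an age's cells. It measured 417 RPM at E18, 128 at P2 and 79.4 at P5, with 74.4%, 30.3% and 34.7% of the cells above 10 RPM and a log2 fold of -2.38 at P5 against E18. The difference was present in each library number (-2.96, -2.32 and -2.01). Among cells with no MGE marker, Mapk10 was at 306, 156 and 80.5 RPM, above the level in 11 of 20 cells (31.5 to 76.9), 19 of 52 (36.5%, 23.6 to 51) and 24 of 72 (33.3%, 22.7 to 45.4), so the order of the levels held and the intervals of the shares overlapped. At P5 it was 37.4, 212 and 22.1 RPM in types 1, 2 and 3. Named after their values were seen, other genes past 2-fold included Cdkn1a (-4.25), Aifm1 (-2.46), Bnip3 (-1.58) and Foxo1 (-1.45) on the lower side and Akt2 (1.39) on the higher. Within libraries 383, 392 and 393, Akt2 gave 4.32, -4.48 and -0.21 and Aifm1 -1.37, 0.63 and -3.51, so the direction of both differed between libraries, while Cdkn1a, Bnip3 and Foxo1 were lower in each. Chosen in the same way, Birc6, a large inhibitor of apoptosis, passed the level in 96.3%, 87.9% and 94.7% of the cells at the 3 ages.

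Of the 9 listed BH3-only genes other than Bcl2l11, Bnip3l was the most abundant, with 93.4, 129 and 101 RPM at E18, P2 and P5 and 57.3%, 37.9% and 46.7% of the cells above 10 RPM. Bnip3 had 33.1, 37.7 and 10.4 RPM, and Bad 16.1, 8.50 and 8.02, with a log2 fold of -0.93 at P5 against E18 (-3.21, 0.78 and -1.38 in libraries 383, 392 and 393). Bnip3 and Bnip3l encode mitochondrial proteins also known for their part in mitophagy. Below the filter, Bid had 15.0, 4.26 and 2.62 RPM, with a fold of -2.14 (-4.56, 1.17 and -0.22 in those libraries), and Bik had no read. Among the others below the filter, also named after their values were seen, the order of the ages differed. At E18, P2 and P5, Pmaip1 (NOXA) had 6.75, 12.5 and 0.0114 RPM and Bmf had 9.39, 8.90 and 0.00142. Neither was above 10 RPM in any of the 75 cells at P5, which allows a share of up to 4.00%. At P5 against E18, Pmaip1 had a log2 fold of -2.94, but -1.03 without the highest cells, and within libraries 383, 392 and 393 it gave -3.59, 0.0076 and -0.64. Bmf was at -3.37, at -2.89 without the highest cells, and at -3.43, 0 and -3.66 in those libraries. The difference of both was thus missing in 392, and that of Pmaip1 lay mainly in 383. Hrk, a BH3-only gene of neurons, had 0.133, 1.5 and 5.96 RPM, with 0%, 6.06% and 9.33% of the cells above the level. Bbc3 (PUMA) stayed at or below 0.396 RPM in every group. None of these levels measures the activity of the proteins.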

How the data were processed

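The deposited counts are raw read pairs per gene. Per the labels and the study's methods, the authors used TopHat2 on GRCm38 and HTSeq 0.6.1, with Ensembl 78 gene models. Mapped read pairs per cell came from a deposited coefficient. Whether counting used strand is not given in the sources used here. Symbols from GENCODE M21 matched 42462 of 43629 identifiers, and the rest held 0.313% of the counts.

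Pooled RPM was the summed count of a group over its summed mapped read pairs. Each age was 1 pool of brains, so no test was made. The 9 members, the pathway and marker lists and the alternatives were chosen with earlier results of these data known. Pathway genes were named when at least 25% of an age's cells passed 10 RPM and E18 and P5 differed 2-fold, at most 3 per list, with 2 correlated genes per widespread member. Folds were computed with 1 RPM added and also run on simulated counts. Spread between cells was set in advance there and not taken from these data, so that run bears on no fold given here. Alternatives used edgeR 4.0.16 (TMM) and DESeq2 1.42.0 size factors, under Python 3.11.15 and R 4.3.3. Doublets were not called. Gm45808, which shares 12.2% of the exonic bases of Bax in the annotation, was not analysed here. Values of some pathway genes are not reported here.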

Additional observations from a re-analysis of the deposited data

Results flagged for a closer look

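Among the types, 2 regulators differed by at least 2-fold in opposite directions between P2 and P5. Apaf1 was lower at P5 than at P2 in type 1 (log2 fold of -1.46, from 152 to 54.7 RPM) and higher in type 3 (1.20, from 17.9 to 42.3 RPM). Xiap was higher at P5 in type 1 (1.77, from 7.18 to 27 RPM) and in type 3 (1.44, from 3.48 to 11.1 RPM) and lower in type 2 (-1.41, from 31.8 to 11.3 RPM). Without the highest cell of each group, Apaf1 went from 101 to 36.6 RPM in type 1 and from 9.25 to 28.8 in type 3, and Xiap from 0.577 to 4.86, 0.0133 to 5.25 and 9.61 to 6.49 RPM in types 1, 3 and 2. The level of Apaf1 in type 1 at P2 came mainly from 3 of 22 cells (1205, 1058 and 602 RPM), and the median type 1 cell held 18.2 RPM at P2 and 20.2 at P5. In type 2 the Xiap reads at P2 were 71% in 1 cell, and other measures of Xiap were higher at P5 there, with 6 of 31 and 6 of 19 cells above 10 RPM (19.4% and 31.6%), 35.5% and 68.4% of the cells with a read, and medians of 0 and 3.07 RPM. With 1 pool per age, the difference between types was not tested, and it cannot be told apart from the library number of the P2 cells.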

How the results depend on the processing

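No paired analysis was possible because each age was 1 pool and no test was made. Of 99 recomputed counts of regulators past 2-fold, 71 stayed within 1.5 times the reported count. At P2 against E18 (reported 4), the count was 2 relative to counts on genes, with TMM, with DESeq2 size factors and without type 3 cells, and 1 with the mean of log2 values over cells. At P5 against E18 (3) it was 0 with the mean of log2 values and 5 in libraries 392 or 393 alone (where 56.6% and 43.9% of all kept genes passed, against 30.5% as reported), and at P5 against P2 (4) it was 2 with a pseudocount of 5 RPM or the mean of log2 values. That mean, which weights cells near 0 fully, also gave 1, 1 and 2 for types 1, 2 and 3 at P2 (4, 5 and 6), and with it 18.5% of all kept genes passed at P2 against E18, 12.5% at P5 against E18, 10.4% at P5 against P2 and 15%, 19.7% and 26.9% for the types at P2. For type 1 at P5 (2), the count was 4 with a pseudocount of 0.1 RPM, relative to counts on genes, with TMM, with mean RPM over cells, in libraries 392 and without cells bearing other markers, 1 with a pseudocount of 5 RPM, and 5 and 6 in libraries 383 and 393 (66.5% and 57.1% of all kept genes, against 47%). For type 2 at P5 (2) it was 1 with a pseudocount of 5 RPM, mean RPM or the highest cells left out, and 4 in libraries 383 and 392 (70.6% and 65.4%, against 45%). For type 3 at P5 (4) it was 7 in libraries 393 (61.1%, against 60.3%).

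Of 555 recomputed folds, 125 stayed within the range that the Poisson intervals of their 2 reported levels allow, and 419 moved outside it. Of 216 recomputed percentages of cells or of all genes, 56 moved outside their binomial interval. The sign changed in 51 folds. The reported fold was within 2-fold for 40 of these and past it for 11, which are counted apart from the 419. The 11 are as follows. Bcl2l11 at P2 against E18 was 1.77 without cells bearing an MGE marker. Bcl2l11 at P5 against E18 was 0.62 and Casp9 -1.34 in libraries 392. Xiap in type 1 at P5 was -0.77 with the mean of log2 values, -0.69 without the highest cells, -2.85 in libraries 392 and -1.08 in 393. Casp9 in type 2 at P5 was -1.58 and -0.11 in libraries 383 and 392, and Bcl2l11 in type 3 at P5 was -0.16 without the highest cells and -0.44 in libraries 392. The cause was not tested. Members above the level per cell were 2.80, 1.95 and 2.73 at E18, P2 and P5 above 1 RPM, 0.96, 0.58 and 0.79 above 50 RPM, 2.56 in E18 libraries 392, and 2.04 at P5 relative to counts on genes. With no filter on low values, 25% of 25985 genes passed 2-fold at P2 against E18, 23.3% at P5 against E18 and 25% at P5 against P2. Scaling relative to counts on genes moved the median of all kept genes by 0.20 at P2 against E18, by 0.19 at P5 against E18 and by 0.68 for type 3 at P5. The alternatives without type 3 cells, without cells bearing 3 markers of another cell type and without cells bearing an MGE marker (for Apaf1 also without the highest cell left) were added after seeing the data. Bak1 and Casp9 had reads in 13 and 19 cells, so their values rest on few cells.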
